A study of Mus musculus with 6 samples.

Results

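Pyruvate and fatty acids are burned for energy in the mitochondrial matrix, and 42 genes of these routes were examined in RNA sequencing of injured Achilles tendon. The 42 genes were listed by name: the pyruvate dehydrogenase complex and its kinases, the enzymes of the tricarboxylic acid (TCA) cycle, the carnitine shuttle, the enzymes of fatty acid β-oxidation, the electron transfer flavoprotein, a pair of uncoupling proteins and a pair of transcriptional regulators. They were 42 of the 18099 genes in the expression table, and all 42 passed the filter on low counts that left 14261 genes for testing. The libraries came from repair tissue of 3 *LysM-Cre; Ampkα1fl/fl* mice and 3 control mice, littermates that carried the floxed *Ampkα1* allele without Cre. All were neonatal and were collected a week after the Achilles tendon of each leg had been cut. *LysM-Cre* is driven from the lysozyme 2 locus and is active in macrophages and other myeloid cells, so the *Ampkα1* deletion was aimed at those cells, but RNA of every cell in the repair tissue was sequenced. The comparison asks how loss of the α1 subunit of AMP-activated protein kinase in myeloid cells bears on the healing tendon. Only the *LysM-Cre; Ampkα1fl/fl* mice carried Cre.

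Pyruvate enters the mitochondrion and is turned into acetyl-CoA by pyruvate dehydrogenase, which is switched off when its kinases phosphorylate it. Long fatty acids enter as carnitine esters, are shortened to acetyl-CoA by β-oxidation, and the acetyl-CoA of both routes is oxidized in the TCA cycle. AMP-activated protein kinase, a sensor of low cell energy, promotes fatty acid entry by inhibiting acetyl-CoA carboxylase, whose product malonyl-CoA blocks carnitine palmitoyltransferase 1. Muscle, heart and brown fat carry these routes at high levels, and several steps have isoforms that are typical of muscle.

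Total counts were between 18076805 and 19479887 reads per library. The targeted gene, *Prkaa1*, had between 688 and 740 reads in the control libraries and between 626 and 751 in the *LysM-Cre; Ampkα1fl/fl* libraries (log2 fold change -0.08, adjusted p = 0.744, edgeR quasi-likelihood test), so the deletion was not visible in whole-tissue RNA. *Lyz2*, the locus that holds Cre, separated the groups, with 7372 to 7778 reads in the controls and 8 to 15 in the *LysM-Cre; Ampkα1fl/fl* libraries. The groups thus differed in Cre and in *Lyz2* as well as in the *Ampkα1* deletion, and the effects of these cannot be told apart here. The libraries also differed in their content of other tissues. Of 37 skeletal muscle markers, 36 were higher in the *LysM-Cre; Ampkα1fl/fl* group and 0 passed the adjusted test, and their summed level ranged from 642 to 4927 CPM (reads of the gene scaled to a common library total) in the controls and from 2020 to 14436 in the *LysM-Cre; Ampkα1fl/fl* libraries. The mean log2 CPM of these markers, used below as a muscle score, was 1.86, 3.34 and 5.70 in controls 1, 2 and 3 and 5.87, 4.40 and 7.54 in *LysM-Cre; Ampkα1fl/fl* mice 1, 2 and 3. *Tpm3*, on the same list, was nearly level between libraries, at 292 to 356 CPM, and so made up much of the lowest sums. The summed level of the adipocyte markers was 118 to 323 CPM in the controls and 56.9 to 201 in the *LysM-Cre; Ampkα1fl/fl* libraries. Of 9 adipocyte markers tested, 2 were higher. The summed level of the macrophage markers was 1144 to 1190 and 737 to 956. Of 11 macrophage markers, 3 were higher (*Mertk*, *Cd68* and *Fcgr1*), and 4 of 8 tendon markers were higher. Of 6 erythroid markers 0 were higher and 5 passed the adjusted test (median log2 fold change -1.59), with a summed level of 1993 to 2969 CPM in the controls and 675 to 982 in the *LysM-Cre; Ampkα1fl/fl* libraries. In whole tissue, fewer cells of a type and less RNA per cell cannot be told apart.

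None of the 42 genes passed an adjusted p of 0.05 (0 of 42, smallest adjusted p = 0.132, edgeR quasi-likelihood test with Benjamini-Hochberg adjustment over all genes tested), against 0.898% of all genes (0.33% higher and 0.568% lower). At an unadjusted p under 0.05 there were 4, all higher in the *LysM-Cre; Ampkα1fl/fl* group, against 14.5% of all genes in either direction and 5.97% in the higher direction. They were *Slc25a20* and *Cpt1a* of the carnitine shuttle and the pyruvate dehydrogenase kinases *Pdk1* and *Pdk4*. The log2 fold change was above 0 for 38 of 42 genes, where 49.4% of all genes had one, with a median of 0.14 and a range from -0.11 for *Ppara* to 2.23 for *Pdk4*. The 3 libraries of one group all lay above the 3 of the other for 4 genes, *Slc25a20*, *Cpt1a*, *Pdk1* and *Dlst*, each with the *LysM-Cre; Ampkα1fl/fl* libraries on top, where 8.94% of all genes did so and 20.4% were apart in either direction. No gene had all its *LysM-Cre; Ampkα1fl/fl* libraries below (0 of 42, against 11.4% of all genes). Between same-numbered mice, 12 genes were higher in all 3 pairs and 1 was lower in all 3, against 19.1% and 19.5% of all genes.

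The direction of the set as a whole rested on 1 library, though not that of every step. *LysM-Cre; Ampkα1fl/fl* mouse 3, which had the highest muscle score, was the highest of the 6 libraries for 37 of 42 genes, as it was for 19.3% of all genes. *LysM-Cre; Ampkα1fl/fl* mouse 2 was the lowest for 26 of 42, against 16.3% of all genes, and 24 genes had both. The median over the 42 genes of the log2 difference from the control mean was 0.08 in *LysM-Cre; Ampkα1fl/fl* mouse 1, -0.13 in mouse 2 and 0.46 in mouse 3. It was -0.04, -0.04 and 0.10 in the controls. Thus, over the set, the second mouse lay below every control and the third above. In the carnitine shuttle the same median was 0.48, 0.15 and 0.43 in *LysM-Cre; Ampkα1fl/fl* mice 1, 2 and 3, against -0.01, -0.06 and 0.09 in the controls. For the pyruvate dehydrogenase kinases it was 0.35, 0.16 and 0.74, against -0.11, -0.07 and 0.12. Without mouse 3 the median log2 fold change of the whole set was -0.02, with 16 of 42 genes higher. Without mouse 2 it was 0.31, with 41 of 42 higher. With the muscle score as a covariate it was -0.09, with 13 of 42 higher. The part of muscle content in the difference was not tested beyond these values.

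**Figure D1:**
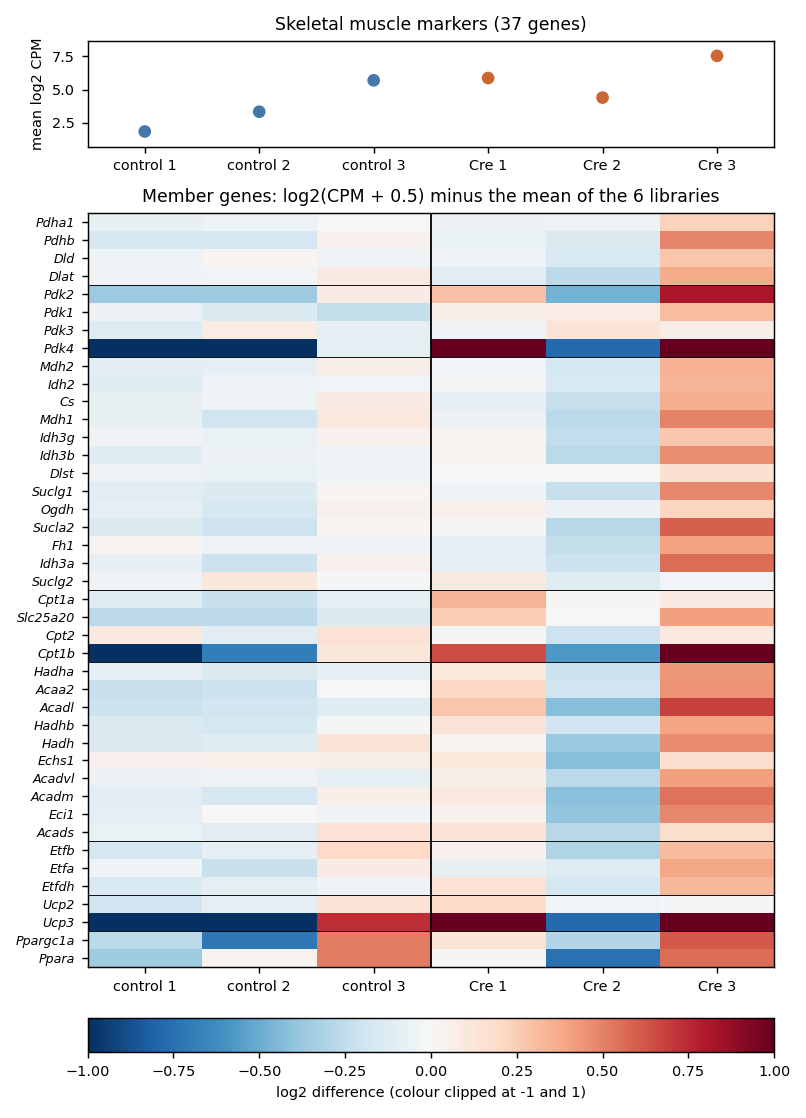
Upper panel: mean log2 CPM of 37 skeletal muscle markers in each library. Lower panel: log2(CPM + 0.5) of each of the 42 genes minus its mean over the 6 libraries (colour, clipped at -1 and 1), in which the column of *LysM-Cre; Ampkα1fl/fl* mouse 3 (Cre 3) is red for nearly all genes, being the highest for 37 of 42, and Cre 2 is the lowest for 26.

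On the TPM scale, which is adjusted for transcript length and so allows genes to be compared, the levels spanned the TCA cycle at the top and the regulators at the bottom. *Mdh2*, the mitochondrial malate dehydrogenase, stood first at 294 ± 37.8 TPM (SD over 6 libraries), followed by *Idh2*, the NADP-linked isocitrate dehydrogenase, at 240, and *Ucp2* at 188. Between *Idh2* and *Ucp2* lay the only pair of neighbours in this order whose ranges over the 6 libraries did not overlap. At the other end, the muscle-type genes *Cpt1b* (10.2 TPM), *Pdk4* (8.58) and *Ucp3* (3.05) and the regulators *Ppargc1a* (1.11) and *Ppara* (0.407) were the lowest of the 42. *Pdk4*, *Cpt1b* and *Ucp3* also varied most between libraries.

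**Figure D2:**
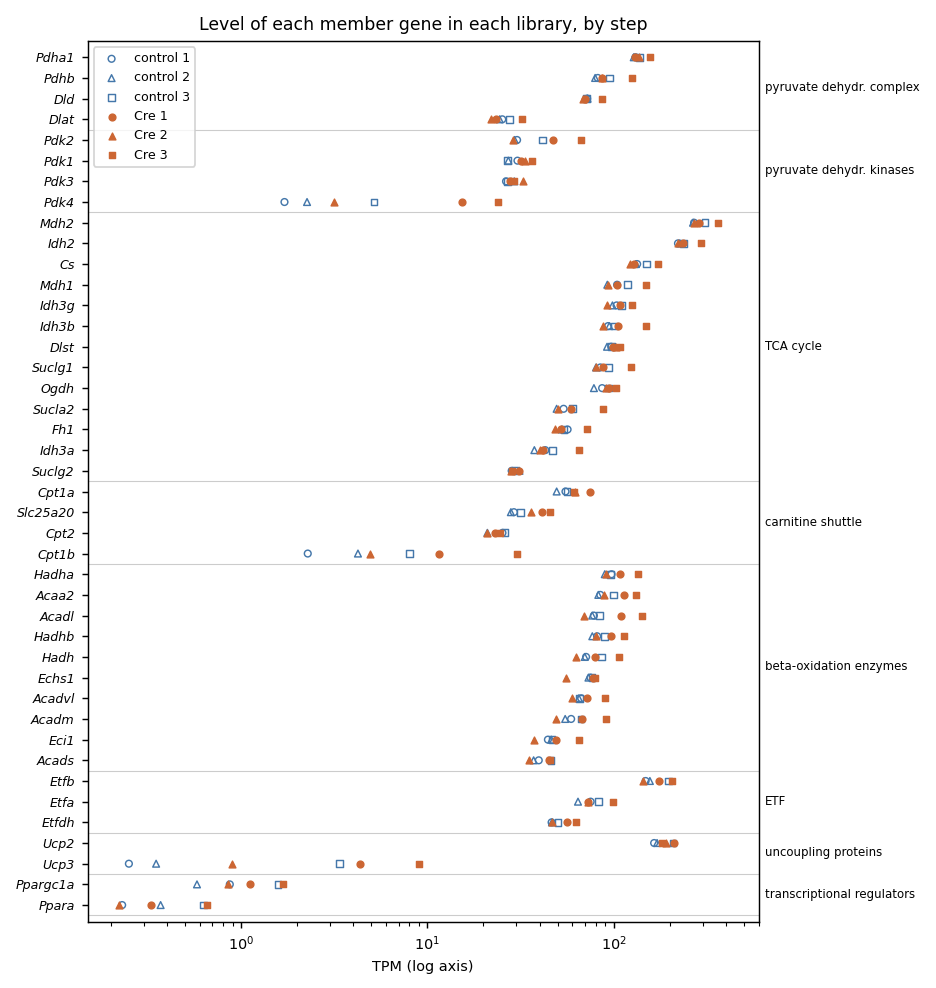
TPM (log axis) of the 42 genes in each library, grouped by step, with controls as open and *LysM-Cre; Ampkα1fl/fl* libraries (Cre) as filled symbols. Most genes lie between 20 and 300 TPM with the libraries close together, whereas *Pdk4*, *Cpt1b* and *Ucp3* spread over a wide range in both groups.

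The subunits of the pyruvate dehydrogenase complex differed little. *Pdha1*, the catalytic α subunit, was at 168 ± 4.67 CPM in the controls and 179 ± 21.3 in the *LysM-Cre; Ampkα1fl/fl* mice (mean ± SD, n = 3 mice each), a log2 fold change of 0.09 ± 0.09 (SE). *Pdhb* (β subunit), *Dlat* (the acetyltransferase core) and *Dld* (the dehydrogenase shared with other complexes) had log2 fold changes of 0.22, 0.02 and 0.06. The step's median was 0.07, and adjusted p was at least 0.628 for each subunit (edgeR).

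All 4 pyruvate dehydrogenase kinases, which inactivate the complex, had log2 fold changes above 0, with a median of 0.40. *Pdk1*, a kinase induced by hypoxia-inducible factor, was measured at 59.8, 56.6 and 52.9 CPM in controls 1 to 3 and at 64.9, 65.8 and 77.3 CPM in *LysM-Cre; Ampkα1fl/fl* mice 1 to 3. All 3 *LysM-Cre; Ampkα1fl/fl* libraries exceeded all 3 controls, and the difference of 1.23-fold (log2 0.30 ± 0.09 SE) did not pass the adjusted test (adjusted p = 0.181, edgeR). With the muscle score as a covariate the log2 value was 0.29, and without mouse 3 it was 0.21.

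*Pdk4*, the kinase that rises in muscle and heart during fasting, had the largest difference of the 42. Its level was 2.65, 3.66 and 8.06 CPM in the controls and 24.3, 4.81 and 38.4 CPM in the *LysM-Cre; Ampkα1fl/fl* mice. Mice 1 and 3 lay above every control, and mouse 2 lay within the control range. The log2 fold change of 2.23 ± 0.75 (SE) did not pass it either (adjusted p = 0.233, edgeR). It was 1.61 without mouse 3, 0.69 with the muscle score as a covariate and 0.11 with the replicate block as well. The fit with both block and score has nearly as many terms as libraries, so its values, here and below, are uncertain. The library order of *Pdk4* was that of the muscle score.

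*Pdk2*, the kinase found in most tissues, stood at 29.2, 29.4 and 39.97 CPM in the controls and at 46.4, 27.0 and 67.0 CPM in the *LysM-Cre; Ampkα1fl/fl* mice. The groups overlapped, as mouse 2 was the lowest of all (log2 fold change 0.51 ± 0.31 SE, adjusted p = 0.513, edgeR). *Pdk3* was nearly level, at 24.0 ± 1.86 against 25.9 ± 1.46 CPM (log2 0.10). *Pdk4* made up 1.92%, 2.57% and 5.14% of the summed TPM of the 4 kinases in the controls and 12.5%, 3.24% and 15.2% in the *LysM-Cre; Ampkα1fl/fl* mice. This share was higher in the *LysM-Cre; Ampkα1fl/fl* mouse of each same-numbered pair, by 7.12 percentage points on average (exact permutation test, two-sided, p = 0.2, where 0.1 is the smallest that 3 against 3 allows).

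The enzymes of the TCA cycle showed differences of at most 0.27 on the log2 scale in either direction. Of 13 genes, 12 had log2 fold changes above 0, with a median of 0.14, and in 12 mouse 3 was the highest library. *Dlst*, the succinyltransferase of the 2-oxoglutarate dehydrogenase complex, was the cycle gene whose groups did not overlap, as those of 20.4% of all genes did not. It was measured at 118, 116 and 119 CPM in the controls and at 123, 123 and 136 CPM in the *LysM-Cre; Ampkα1fl/fl* mice. The controls lay close together, and the log2 fold change was only 0.11 ± 0.06 (SE, adjusted p = 0.440, edgeR). By annotation *Dlst* overlaps *Prox2*, and whether counting used strand is not given in the sources used here.

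*Sucla2*, a β subunit of succinyl-CoA synthetase, had the largest log2 fold change of the cycle, 0.27 ± 0.21 (SE), from 48.8 ± 4.14 to 58.8 ± 18.9 CPM. *Suclg2*, the alternative β subunit that gives GTP, was the cycle gene that was lower (log2 -0.04), at 34.7 ± 1.93 and 33.8 ± 2.49 CPM. Citrate synthase (*Cs*), which opens the cycle and is often taken as a measure of mitochondrial content, stood at 181 ± 10.7 and 186 ± 41.1 CPM (log2 0.04 ± 0.15 SE). The 3 subunits of NAD-linked isocitrate dehydrogenase had log2 fold changes of 0.21 (*Idh3a*), 0.18 (*Idh3b*) and 0.05 (*Idh3g*). The remaining enzymes, *Idh2*, *Ogdh*, *Suclg1*, *Fh1*, *Mdh1* and *Mdh2*, lay between 0.07 and 0.17. None of the 13 genes had an unadjusted p under 0.05 (edgeR, 0 of 13), against 14.5% of all genes.

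In the carnitine shuttle, 3 of 4 genes had log2 fold changes above 0, and *Slc25a20* had the smallest p of the 42. *Slc25a20*, the carrier that exchanges acylcarnitine for carnitine across the inner membrane, was measured at 20.6, 20.6 and 22.4 CPM in the controls and at 29.7, 24.8 and 33.2 CPM in the *LysM-Cre; Ampkα1fl/fl* mice. Each *LysM-Cre; Ampkα1fl/fl* library exceeded each control. The difference was 1.38-fold (log2 0.46 ± 0.11 SE) and did not pass the adjusted test (adjusted p = 0.132, edgeR). It was the only one of the 42 to pass in DESeq2 (adjusted p = 0.0256), where 3.86% of all genes passed, and in edgeR without *LysM-Cre; Ampkα1fl/fl* mouse 2 (adjusted p = 0.043), where 1.91% did. Over all alternatives its log2 fold change lay between 0.29 and 0.58 and its adjusted p between 0.0235 (edgeR with the adipocyte score as a covariate) and 0.999 (edgeR with the replicate block and the muscle score).

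*Cpt1a*, the carnitine palmitoyltransferase 1 of liver and most other tissues and the entry step that malonyl-CoA inhibits, stood at 108, 102 and 111 CPM in the controls and at 150, 120 and 126 CPM in the *LysM-Cre; Ampkα1fl/fl* mice. The groups did not overlap, and mouse 1, not mouse 3, was the highest. The log2 fold change was 0.30 ± 0.09 (SE, adjusted p = 0.204, edgeR), 0.26 with the muscle score as a covariate and 0.33 without mouse 3. It was 0.20 without mouse 1 and 0.08 with the replicate block and the muscle score together. These gene totals sum several transcript models. The estimates for the reference *Cpt1a* transcript alone were 42.85, 42.08 and 55.92 TPM in the controls and 41.8, 61.88 and 61.26 TPM in the *LysM-Cre; Ampkα1fl/fl* mice, with mouse 1 the lowest of all, so that the groups overlapped on that transcript.

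*Cpt1b*, the muscle form of the same enzyme, was at 2.91, 5.63 and 10.3 CPM in the controls and at 15.1, 6.17 and 40.1 CPM in the *LysM-Cre; Ampkα1fl/fl* mice. The groups overlapped through mouse 2, and the library order was that of the muscle score. Its log2 fold change was 1.70 ± 0.72 (SE, adjusted p = 0.347, edgeR), 0.76 without mouse 3 and 0.09 with the muscle score as a covariate. *Cpt1b* took 3.97%, 7.90% and 12.5% of the summed *Cpt1a* and *Cpt1b* TPM in the controls and 13.4%, 7.39% and 33.1% in the *LysM-Cre; Ampkα1fl/fl* mice (difference 9.82 percentage points, exact permutation test, two-sided, p = 0.3). *Cpt2*, which returns the acyl group to coenzyme A inside the matrix, was lower in all 3 same-numbered pairs but by little, at 24.6 ± 2.30 and 23.2 ± 2.49 CPM (log2 -0.08 ± 0.11 SE).

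**Figure D3:**
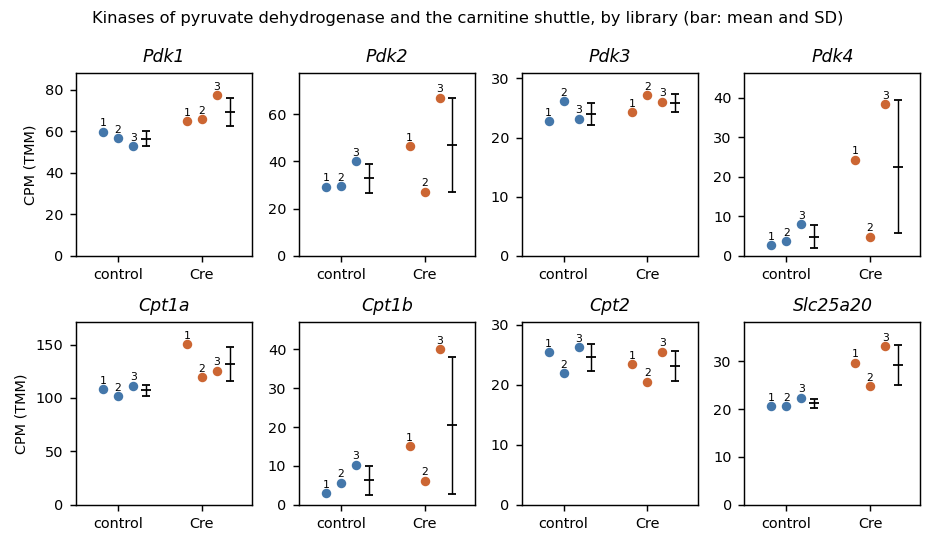
TMM-scaled CPM of the 4 pyruvate dehydrogenase kinases and the 4 carnitine shuttle genes in each mouse (points numbered by replicate, axes from 0), with the mean and SD of each group beside the points. The groups are apart in *Pdk1*, *Cpt1a* and *Slc25a20*, whereas *LysM-Cre; Ampkα1fl/fl* mouse 2 (Cre 2) lies among the controls in *Pdk4* and *Cpt1b* and below them in *Pdk2*.

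Among the β-oxidation enzymes, 9 of 10 had log2 fold changes above 0, with a median of 0.18, and mouse 3 was the highest library for all 10. The groups overlapped for all 10, where 20.4% of all genes had groups that were apart. *Acadl*, the long-chain acyl-CoA dehydrogenase, had the largest difference, at 65.0 ± 2.22 CPM in the controls and 89.3, 54.8 and 119 CPM in the 3 *LysM-Cre; Ampkα1fl/fl* mice, which lay on both sides of the controls (log2 0.43 ± 0.25 SE, adjusted p = 0.491, edgeR). These totals sum the reference *Acadl* transcript and a second copy listed under the same RefSeq accession, and the copies moved in opposite directions. The reference copy was at 78.25, 76.68 and 83.41 TPM in the controls and lower in each *LysM-Cre; Ampkα1fl/fl* mouse, at 60.01, 51.81 and 74.02 TPM. The second copy was estimated at 0, 0 and 1.83 reads in the controls and at 769.28, 259.93 and 1048.91 reads in the *LysM-Cre; Ampkα1fl/fl* mice. The direction of *Acadl* thus depends on whether both copies are counted, and the gene is uncertain. The other acyl-CoA dehydrogenases, for very long (*Acadvl*), medium (*Acadm*) and short (*Acads*) chains, had log2 fold changes of 0.16, 0.20 and 0.03.

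*Hadha* and *Hadhb*, the subunits of the mitochondrial trifunctional protein that handles long chains, each had a log2 fold change of 0.24, and their TPM levels were also close, at 103 and 89.8. *Acaa2*, the thiolase of the last step, stood at 52.7 ± 4.82 and 66.0 ± 14.5 CPM (log2 0.32 ± 0.16 SE, adjusted p = 0.423, edgeR). Its libraries followed the order of the muscle score. *Hadh* and *Eci1*, which oxidize hydroxyacyl-CoA and move double bonds, were both at log2 0.13. *Echs1*, the short-chain hydratase, was the enzyme that was lower (log2 -0.08 ± 0.15 SE), with 3 controls within 44.1 to 44.8 CPM and mouse 2 at 31.8 CPM.

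The electron transfer flavoprotein passes electrons from the acyl-CoA dehydrogenases to ubiquinone. Its subunits *Etfa* and *Etfb* and its oxidoreductase *Etfdh* had log2 fold changes of 0.14, 0.05 and 0.21, with adjusted p of at least 0.503 (edgeR). *Ucp2*, an uncoupling protein of many tissues including macrophages, stood at 114 ± 13.6 and 122 ± 10.3 CPM, with overlapping groups (log2 0.09 ± 0.10 SE).

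*Ucp3*, its counterpart in skeletal muscle, was measured at 0.265, 0.382 and 3.56 CPM in the controls and at 4.69, 0.919 and 9.89 CPM in the *LysM-Cre; Ampkα1fl/fl* mice. Control 3 lay above mouse 2, and the 6 libraries followed the order of the muscle score. The log2 fold change was 1.88 ± 1.10 (SE, adjusted p = 0.495, edgeR), 1.00 without mouse 3 and -0.09 with the muscle score as a covariate. *Ucp1* of brown fat, which was not among the 42, had at most 2 reads in a library.

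The regulators *Ppara*, a fatty acid-activated nuclear receptor, and *Ppargc1a*, a coactivator of mitochondrial biogenesis, were low. *Ppara* stood at 0.794, 1.20 and 1.86 CPM in the controls and at 1.15, 0.487 and 1.95 CPM in the *LysM-Cre; Ampkα1fl/fl* mice (log2 -0.11 ± 0.53 SE). *Ppargc1a* was at 2.65, 1.80 and 4.93 CPM and at 3.65, 2.60 and 5.30 CPM (log2 0.30 ± 0.42 SE). Both overlapped between the groups. *Ppargc1a* was higher in all 3 same-numbered pairs, and with the pairing in the fit its log2 fold change was 0.35 (adjusted p = 0.479, edgeR).

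**Figure D4:**
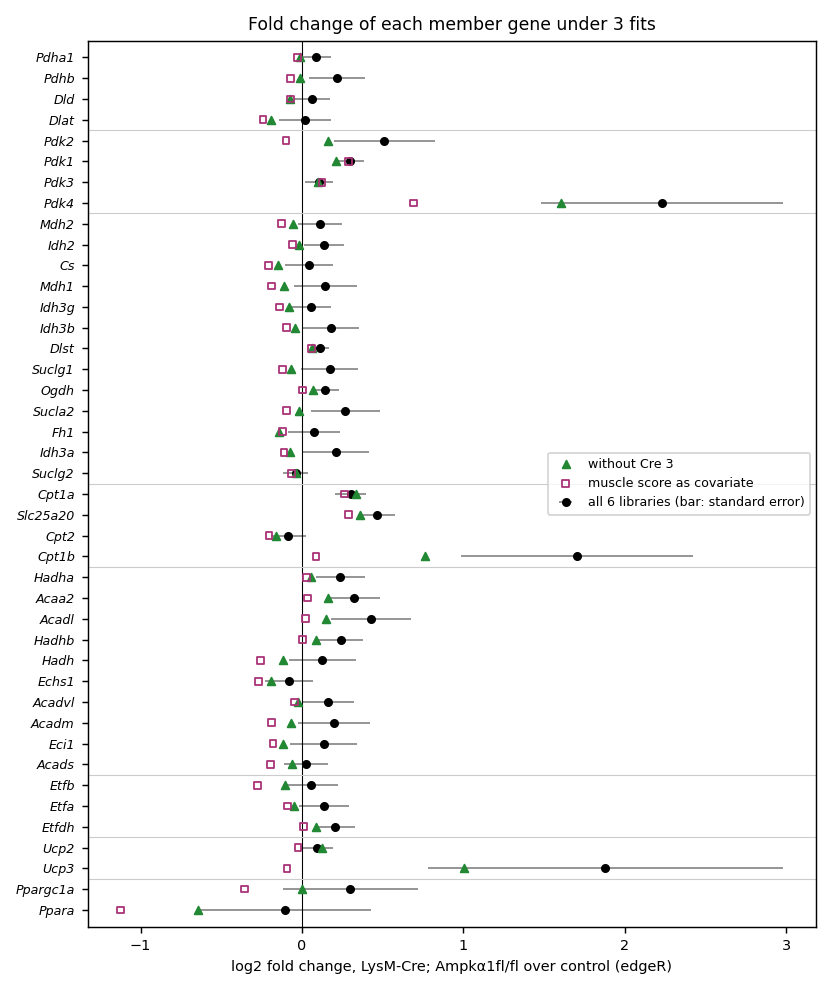
The edgeR log2 fold change of each of the 42 genes with all 6 libraries (black, bar: standard error), without *LysM-Cre; Ampkα1fl/fl* mouse 3 (Cre 3, green) and with the muscle score as a covariate (purple). Most black points lie just above 0 and most green and purple ones at or below it. Several genes stay above 0 in all 3 fits, among them *Slc25a20*, *Cpt1a*, *Pdk1*, *Pdk3*, *Pdk4*, *Dlst* and *Hadha*.

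The library order of the muscle score (control 1, control 2, *LysM-Cre; Ampkα1fl/fl* 2, control 3, *LysM-Cre; Ampkα1fl/fl* 1, *LysM-Cre; Ampkα1fl/fl* 3, from low to high) was followed by 4 of the 42 genes, *Pdk4*, *Cpt1b*, *Acaa2* and *Ucp3*, and by 1.19% of all genes. Over the 16 alternative settings, 11 of the 42 genes kept the sign of their fold change, namely *Pdk1*, *Pdk3*, *Pdk4*, *Ogdh*, *Dlst*, *Cpt1a*, *Cpt1b*, *Slc25a20*, *Hadha*, *Hadhb* and *Acaa2*. The share of all genes that kept theirs was not computed, and the settings reuse the same libraries. With the adipocyte score as a covariate 6 of the 42 passed an adjusted p of 0.05 (*Pdk2*, *Pdk4*, *Cpt1b*, *Slc25a20*, *Acaa2* and *Ucp3*), where 4.91% of all genes did.

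Sequences before the start are shown for *Slc25a20* and *Cpt1a*, the shuttle genes whose groups did not overlap, and for *Pdk4* and *Ucp3*, which had the largest log2 fold changes, because fatty acid oxidation genes are known targets of nuclear receptors that bind AGGTCA motifs. Each run is the 250 bases before a RefSeq start of the gene in GRCm38.p6, 5′ to 3′ on the gene's strand, from RefSeq, with AGGTCA (nuclear receptor core motif) and CAGCTG (an E-box of the kind bound by MyoD) in capitals on either strand.
*Slc25a20* (chr9:108661886-108662135, + strand): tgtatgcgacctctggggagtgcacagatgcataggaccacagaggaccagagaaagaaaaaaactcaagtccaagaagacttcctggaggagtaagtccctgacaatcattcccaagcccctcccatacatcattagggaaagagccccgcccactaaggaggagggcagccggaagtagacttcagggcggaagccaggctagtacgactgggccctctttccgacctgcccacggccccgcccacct
*Cpt1a* (chr19:3323051-3323300, + strand): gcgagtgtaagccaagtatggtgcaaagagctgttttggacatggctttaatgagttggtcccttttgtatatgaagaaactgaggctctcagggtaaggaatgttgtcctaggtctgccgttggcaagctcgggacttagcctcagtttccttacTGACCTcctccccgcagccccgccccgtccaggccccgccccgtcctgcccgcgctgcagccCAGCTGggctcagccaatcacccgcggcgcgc
*Pdk4* (chr6:5496279-5496528, − strand): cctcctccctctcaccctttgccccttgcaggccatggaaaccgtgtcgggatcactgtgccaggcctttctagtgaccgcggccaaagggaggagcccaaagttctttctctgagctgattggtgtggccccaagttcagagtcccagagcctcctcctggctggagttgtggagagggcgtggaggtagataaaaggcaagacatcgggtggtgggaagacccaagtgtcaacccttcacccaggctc
*Ucp3* (chr7:100472741-100472990, + strand): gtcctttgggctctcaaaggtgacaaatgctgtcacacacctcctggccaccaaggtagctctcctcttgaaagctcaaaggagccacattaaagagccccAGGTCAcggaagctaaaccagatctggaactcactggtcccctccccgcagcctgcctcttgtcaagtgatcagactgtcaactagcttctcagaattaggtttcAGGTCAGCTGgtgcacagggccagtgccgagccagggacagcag
The *Cpt1a* run lies inside the gene as annotated, which begins upstream at position 3322326, so it does not precede the gene's first start. In *Ucp3* the second AGGTCA and the CAGCTG share bases. Windows were matched for 39 of the 42 genes, which had 46 windows. AGGTCA was in 7 of the 46, those of *Acadm*, *Acadvl*, *Cpt1a*, *Echs1*, *Fh1*, *Sucla2* and *Ucp3*, and in 14% of all 32851 windows. CAGCTG was in 5 of the 46, those of *Cpt1a*, *Dld*, *Pdk1*, *Ucp2* and *Ucp3*, and in 13% of all windows. The direct repeat AGGTCANAGGTCA and the longer TCAAGGTCA, both of which contain AGGTCA, were in 0 of the 46 and in 0.0335% and 0.387% of all windows. Such matches describe letters only, not binding.

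A further list of 58 genes of the same routes was read beside the 42, and 56 were tested. In the edgeR test 0 of the 56 passed an adjusted p of 0.05 in either direction (smallest adjusted p = 0.101), against 0.898% of all genes. At an unadjusted p under 0.05 there were 9 (edgeR), against 14.5% of all genes. Of the 56, 30 were higher and 26 lower, with a median log2 fold change of 0.03. The highest were *Fabp3*, the fatty acid-binding protein of muscle and heart (log2 2.15 ± 0.82 SE), *Esrrg*, an orphan nuclear receptor of oxidative tissues (0.92 ± 0.79), and *Acacb*, the acetyl-CoA carboxylase whose malonyl-CoA inhibits *Cpt1* enzymes (0.72 ± 0.41). *Fabp3* stood at 3.49, 3.06 and 11.4 CPM in the controls and at 21.1, 6.33 and 52.2 CPM in the *LysM-Cre; Ampkα1fl/fl* mice, with mouse 2 within the control range. *Esrrg*, with 7 to 53 reads per library, was at 0.582, 0.382 and 1.10 CPM and at 0.678, 0.379 and 2.86 CPM (adjusted p = 0.657, edgeR). *Acacb* was at 7.35, 7.38 and 11.3 CPM and at 10.9, 8.06 and 23.9 CPM (adjusted p = 0.488, edgeR). In both, mouse 3 was the highest library and the groups overlapped. The lowest were *Pparg*, the nuclear receptor of adipocytes and of lipid-handling macrophages (-0.90 ± 0.23, adjusted p = 0.142, edgeR), *Lpl*, the lipase that frees fatty acids from lipoproteins (-0.67 ± 0.20), and *Pcx*, pyruvate carboxylase, which turns pyruvate into oxaloacetate (-0.59 ± 0.21).

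*Pparg* stood at 12.2, 15.6 and 14.5 CPM in the controls and at 9.18, 5.03 and 8.49 CPM in the *LysM-Cre; Ampkα1fl/fl* mice. *Lpl* was at 238, 217 and 246 CPM in the controls and at 163, 100.3 and 177 CPM in the *LysM-Cre; Ampkα1fl/fl* mice. *Pcx* was at 22.1, 19.4 and 31.1 CPM and at 18.1, 12.5 and 17.4 CPM. For *Pparg*, *Lpl* and *Pcx* the groups did not overlap, as all *LysM-Cre; Ampkα1fl/fl* libraries lay below, where 11.4% of all genes did so. The adipocyte markers had a median log2 fold change of -0.52 and the macrophage markers one of -0.26, and the part of either in these values was not tested.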

How the data were processed

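Libraries of 6 mice were sequenced on a BGISEQ platform. Per transcript (65053 in all), the authors supplied estimated counts, which are unscaled, and TPM, a level set relative to length and to the library total by the authors. GRCm38.p6 is the build in the submitters' processing notes, and the aligner, the counting tool and the strand setting are not given in the sources used here. Another 20 columns of values (FPKM, normalized counts and group averages) were not used. Estimated counts were summed per NCBI gene and rounded to whole reads, giving 18099 genes, 18049 (99.72%) with a symbol.

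Groups were compared in R 4.3.3 with edgeR 4.0.16 (TMM, filterByExpr, quasi-likelihood test, Benjamini-Hochberg adjustment over 14261 genes, threshold 0.05). The study's statistics section names unpaired tests and no test for counts. Alternatives were DESeq2 1.42.0, limma 3.58.1 on log2(TPM + 1), other scalings and filters, a replicate block, marker scores as covariates, and leaving out each library. Shares of TPM were tested with exact permutation tests. Replicate numbers come from the labels, which do not say that same-numbered mice are matched. Deviations of same-numbered samples from their group means were weakly correlated (r = 0.18, 0.12 and 0.31 across genes). No value for differently numbered samples was set beside these, so a pairing is not established. The main test was unpaired, and pairs were used only in the replicate block, in permutation within pairs and in counts of pairs. The scripts were tested on simulated data. P-values measure the spread between 3 mice per group, and totals of about the same size limit counting error alike in all libraries.

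The 42 genes and all lists were chosen with earlier results of these data known. Given by library were genes with a log2 fold change of at least 0.5 in size, an unadjusted p under 0.05, or alone in their step with non-overlapping groups, and of the further list the 3 highest and 3 lowest; other values given by library were chosen after they were seen. Of the 42, 7 overlap another gene of the table by annotation (*Idh3b*, *Etfdh*, *Etfb*, *Echs1*, *Ogdh*, *Dlst* and *Pdha1*).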

Additional observations from a re-analysis of the deposited data

How the results depend on the processing

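The number of the 42 genes passing an adjusted p of 0.05 was 0 in the edgeR comparison, 1 in DESeq2 (*Slc25a20*), 6 with the adipocyte score as a covariate, and 0 to 1 when 1 library was left out, the 1 being *Slc25a20* without *LysM-Cre; Ampkα1fl/fl* mouse 2. The replicate block, which pairs same-numbered mice, gave 0 of 42 called, 37 higher and a median log2 fold change of 0.13, and it changed no call of a named gene. Of the 42 genes, 38 were higher with all libraries, 16 to 41 when 1 library was left out, 13 with the muscle score as a covariate (median log2 fold change -0.0915) and 25 with the replicate block and the muscle score together. Of 669 values of single genes under an alternative, 661 stayed on the same side of the threshold and 8 passed it only there. Over all genes tested, 128 passed in the edgeR comparison, 685 in DESeq2, 47 with the replicate block, 60 in limma on TPM, 60 with the muscle score, 0 with the replicate block and the muscle score together, 700 with the adipocyte score, and 8 to 276 with 1 library left out. The fit with block and muscle score together has nearly as many terms as libraries and could hardly call any gene. Of the further list, 3 genes passed in DESeq2 (*Acly*, *Lpl* and *Pparg*) and 1 with the adipocyte score (*Fabp3*), against 0. The cause of these changes was not tested. Permuting the share of *Pdk4* or *Cpt1b* within pairs gave exact p = 0.25 and 0.5, where 0.25 is the smallest that 3 pairs allow. *Ucp3*, *Ppara* and *Ppargc1a* rested on few reads, down to 5 per library for *Ucp3*.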

Other observations

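The values of 3 further genes, *Aco1*, *Acly* and *Idh1*, are given here, and they were chosen after their values were seen. *Aco1*, the cytosolic aconitase that also acts as an iron sensor, stood at 64.9, 67.7 and 66.7 CPM in the controls and at 57.5, 52.9 and 57.2 CPM in the *LysM-Cre; Ampkα1fl/fl* mice (log2 fold change -0.25 ± 0.05 SE, adjusted p = 0.101, edgeR). *Acly*, which splits citrate to make cytosolic acetyl-CoA, was at 135, 128 and 145 CPM and at 115, 116 and 109 CPM (-0.26 ± 0.06, adjusted p = 0.127, edgeR). *Idh1*, the cytosolic isocitrate dehydrogenase, was at 129, 122 and 138 CPM and at 111, 119 and 111 CPM (-0.19 ± 0.07, adjusted p = 0.236, edgeR). In each, all 3 *LysM-Cre; Ampkα1fl/fl* libraries lay below all 3 controls, as for 11.4% of all genes, and none passed the adjusted test.

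The transcript estimates behind a gene could switch between models, by group for *Acadl*, as given above, and from mouse to mouse for others. The reference *Ppargc1a* transcript was listed at 0, 0 and 1.39 TPM in the controls and at 0.81, 0 and 1.55 TPM in the *LysM-Cre; Ampkα1fl/fl* mice, and a predicted model at 0.77, 0.58 and 0 TPM and at 0, 0.64 and 0.02 TPM. In *Cpt1a* a predicted model was at 32.95 TPM in *LysM-Cre; Ampkα1fl/fl* mouse 1 and at 0.01 TPM or less in the other 5 libraries, and another was at 12.24 and 5.75 TPM in controls 1 and 2 and at 0 elsewhere. Gene totals, not single models, were used in all comparisons.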
